A study of Mus musculus with 6 samples.

Results

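The plasminogen activators and their serpins were followed here as 5 genes, *Plau*, *Plat*, *Plaur*, *Serpine2* and *Serpinb2*, which were taken by symbol from a table of 43346 gene rows, of which 17589 held enough counts to be tested. Each symbol matched 1 row and all 5 rows passed that filter. *Serpinb2* passed it through the senescent libraries alone, where its counts are high. The genes were picked from a larger survey of these data in which their difference between control and senescent cells was already known, so their levels and fold changes are given as a description and without p-values.

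The RNA-seq came from primary mouse adult fibroblasts (MAFs) that were isolated from ear tissue of female C57BL6/J adults with wild-type clock genes. Control MAFs (n = 3 libraries) were sham irradiated. Senescent MAFs (n = 3 libraries) received 20 Gy of X-rays, a dose that damages DNA and ends proliferation, and were then kept in culture for weeks. Both groups grew at 3% oxygen in serum-containing medium, were given 100 nM dexamethasone, a glucocorticoid that sets cultured clocks to a common phase, for 2 hours, and were lysed 12 hours later, so no group is free of the steroid and only 1 time point was read. RNA was measured in bulk from whole cultures. A lower level can therefore mean fewer expressing cells or less RNA in each of them, and these cannot be told apart. The labels do not say whether replicates were separate animals, cultures or dishes, and p-values measure only the spread between these libraries.

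Plasmin, the main protease that dissolves fibrin clots, circulates as the inactive plasminogen and is switched on by a single cut. That cut is made by urokinase (uPA, encoded by *Plau*), which works mostly on cell surfaces where its receptor uPAR (*Plaur*) holds it, or by tissue-type plasminogen activator (tPA, *Plat*), which works best on fibrin. Serpins end the reaction by offering a bait loop that traps the protease in a covalent complex: protease nexin-1 (*Serpine2*) inhibits thrombin as well as urokinase and tPA on cell surfaces, and PAI-2 (*Serpinb2*) inhibits urokinase but is mostly kept inside the cell that makes it. Fibroblasts are a known source of urokinase and protease nexin-1, and secreted members of this system belong to the mixture of proteins that senescent cells release.

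The RefSeq promoter table (build GRCm38.p6) held 3 of the 5 genes, *Plaur*, *Serpine2* and *Serpinb2*. The 250 bases before the start of *Plaur* and of *Serpinb2* are shown because the study concerned the AP-1 motif, TGAGTCA or TGACTCA, and the E-box CACGTG, and because these 2 windows differ in the letters searched for. The first is chr7:24462233-24462482 on the plus strand, with the AP-1 motif in capitals. The second is chr1:107511173-107511422 on the plus strand, with the TATA box TATAAA and a TGAATCA in capitals.
Plaur: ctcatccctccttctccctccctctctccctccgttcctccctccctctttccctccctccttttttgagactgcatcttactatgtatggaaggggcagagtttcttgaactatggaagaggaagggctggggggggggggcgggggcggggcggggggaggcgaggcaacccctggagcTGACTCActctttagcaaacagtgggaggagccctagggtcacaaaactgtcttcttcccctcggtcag
Serpinb2: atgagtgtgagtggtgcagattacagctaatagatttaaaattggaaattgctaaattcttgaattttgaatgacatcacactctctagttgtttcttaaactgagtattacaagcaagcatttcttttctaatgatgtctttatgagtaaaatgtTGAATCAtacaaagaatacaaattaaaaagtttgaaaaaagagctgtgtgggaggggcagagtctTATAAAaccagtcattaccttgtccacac
The *Plaur* window held TGACTCA, beginning 69 bases before the start. Its GC content was 59.6%, with 6 CpG dinucleotides. The *Serpinb2* window held TATAAA, beginning 29 bases before the start, and no exact AP-1 motif. It held TGAATCA, a form of TGANTCA, beginning 94 bases before the start, and this looser motif was searched for only after the sequences had been seen. The GC content of that window was 32.4%, with 0 CpG dinucleotides, and a second RefSeq start of *Serpinb2* lies 87 bases further on. The *Serpine2* window, on the minus strand at chr1:79858666-79858915, had a GC content of 78.8% with 34 CpG dinucleotides and none of the 4 motifs. The E-box was in none of the 3 windows. Among 32851 windows of the same length, searched on both strands, 4.46% held the AP-1 motif, 6.02% the E-box, 12.4% the TATA box and 6.75% TGANTCA, of which every AP-1 motif is a form. The median GC content of those windows was 52.4%, with quartiles at 45.2% and 61.2%. A match gives letters only and says nothing on whether a factor was bound.

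Libraries held between 50288454 and 82229553 counts on genes. Within groups, the root mean square difference in log2 level between pairs of libraries ran from 0.185 to 0.370, and between groups from 1.07 to 1.17. Senescent replicate 3 stood furthest from its own group, at 0.346 and 0.370 from the other senescent libraries, while no other pair within a group exceeded 0.230. The labels were checked on 4 genes: the cell cycle inhibitors *Cdkn1a* and *Cdkn2a* rose, with log2 fold changes of 2.33 and 1.90, and the nuclear lamina gene *Lmnb1* and the proliferation marker *Mki67* fell, with log2 fold changes of -3.55 and -5.94 (adjusted p of 2.54e-08, 0.000398, 1.25e-08 and 1.73e-08, from the quasi-likelihood test of edgeR after Benjamini-Hochberg adjustment). Of 9 fibroblast markers, all tested, 4 were higher and 4 lower in senescent cells, and their summed level was 13894 to 15652 CPM (read counts scaled to a common library size) in the control libraries, and 4488 to 5404 CPM in the senescent ones. The collagen genes *Col1a1*, *Col1a2* and *Col3a1* made up most of both sums. Their means were 4435, 5612 and 3896 CPM in control and 763, 1531 and 971 CPM in senescent cells. *Pdgfra* was also lower, and *Thy1*, *Dcn*, *Lum* and *Fap* were higher.

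Urokinase RNA was measured at *Plau* (ENSMUSG00000021822, chromosome 14 from 20836662 to 20843388 on the plus strand, 11 exons in its principal transcript). Its level, in CPM after TMM scaling (which evens out differences in RNA composition between libraries), was 50.5, 49.4 and 50.8 in control replicates 1 to 3, and 85.7, 84.2 and 86.7 in senescent replicates 1 to 3. The groups did not overlap and each was tight, with a coefficient of variation of 1.45% in control and 1.44% in senescent cells. The mean went from 50.2 ± 0.729 CPM to 85.6 ± 1.23 CPM (mean ± SD of 3 libraries), and the fitted log2 fold change was 0.77 ± 0.05 (SE), or 1.70-fold. These values rest on 2486 to 7317 counts per library. The difference was a middling one for this comparison, since 21.8% of the tested genes had a larger log2 fold change.

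The other activator gene, *Plat* (ENSMUSG00000031538, chromosome 8 from 22757744 to 22782847 on the plus strand, 14 exons), encodes a secreted protease best known from vessel walls and the brain. Its level was 48.8, 48.7 and 49.6 CPM in the control libraries and 90.0, 87.4 and 83.9 CPM in the senescent libraries. All senescent libraries were above all control libraries, and senescent replicate 3 was the lowest of its group for *Plat*, where it was the highest for *Plau*. The mean went from 49.0 ± 0.468 CPM to 87.1 ± 3.03 CPM (mean ± SD of 3 libraries), and the fitted log2 fold change was 0.83 ± 0.05 (SE). Per length, the ratio of *Plau* to *Plat* was 1.11 ± 0.0113 in control and 1.06 ± 0.0468 in senescent cells (CPM per kilobase of gene length, RPKM, SD, n = 3 per group). By library it was 1.118, 1.096 and 1.107 in control, and 1.029, 1.042 and 1.116 in senescent replicates 1 to 3. The groups overlapped through senescent replicate 3 alone. Without that library the log2 fold changes were 0.77 for *Plau* and 0.86 for *Plat*. Thus urokinase and tPA RNA both stood higher in senescent cells, and a shift of one against the other was not tested.

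The receptor gene *Plaur* (ENSMUSG00000046223, chromosome 7 from 24462500 to 24475873 on the plus strand, 7 exons) differed more than either activator gene. Its level was 42.2, 47.9 and 46.9 CPM in control and 162, 168 and 126 CPM in senescent replicates 1 to 3. Senescent replicate 3 was well below the other senescent libraries, and it still stood above every control library. The mean went from 45.7 ± 3.07 CPM to 152 ± 22.5 CPM (mean ± SD of 3 libraries), and the fitted log2 fold change was 1.73 ± 0.12 (SE). With senescent replicate 3 left out, the log2 fold change of *Plaur* was 1.86. The coefficient of variation of *Plaur* among senescent libraries, 14.8%, was over 4 times those of *Plau* and *Plat*. The ratio of receptor to urokinase RNA per length, *Plaur* over *Plau* in RPKM, went from 1.53 ± 0.115 to 2.99 ± 0.477 (SD, n = 3 per group). Its lowest senescent value was 2.45 and its highest control value 1.63.

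Protease nexin-1 RNA was read at *Serpine2* (ENSMUSG00000026249, chromosome 1 from 79794197 to 79861180 on the minus strand, 9 exons in its principal transcript). Control libraries held 199, 198 and 198 CPM, and senescent libraries 470, 477 and 498 CPM. The control libraries were nearly identical, with a coefficient of variation of 0.204%, and the groups were far apart. The fit gave a log2 fold change of 1.28 ± 0.05 (SE), from a mean of 198.7 ± 0.406 CPM to 482 ± 14.4 CPM (mean ± SD of 3 libraries), and 14.7% of tested genes had a larger one. Senescent replicate 3 was the highest for *Serpine2*, the reverse of its place for *Plaur* and *Plat*.

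*Serpinb2* (ENSMUSG00000062345, chromosome 1 from 107511423 to 107535478 on the plus strand, 8 exons), the gene of PAI-2, was close to silent in control cells. It was read 3, 7 and 3 times in the control libraries and 5229, 7178 and 10060 times in the senescent libraries, which is 0.0601, 0.117 and 0.0613 CPM against 94.3, 90.6 and 119 CPM. Its control counts were at the level that counting alone can just resolve, and senescent replicate 3 was the highest. Pooled over the control libraries, 13 counts gave 0.0820 CPM, with an exact 95% Poisson interval of 0.0437 to 0.140 CPM. The senescent libraries held 22467 counts in all, for a ratio of pooled levels of 1251 with an interval of 731 to 2350. Both intervals cover counting error only. The fit gave a log2 fold change of 10.24, and 5 of the 17589 tested genes had a larger one. Its SE, worked back from the test statistic, was 0.22. That is narrower than the counting interval of the ratio above, so it understates the uncertainty. The mean of *Serpinb2* was 0.0795 ± 0.0326 CPM in controls, against 101 ± 15.5 CPM after irradiation (SD, n = 3 per group). Per length, a gene with almost no reads in control cells reached a mean of 43.2 ± 6.62 RPKM, against 36.5 ± 0.525 RPKM for *Plau* in the same libraries. Its annotated span shares 6476 bases with that of *Serpinb10* on the same strand, and how reads in shared exons were assigned is not given in the sources used here.

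**Figure D1:**
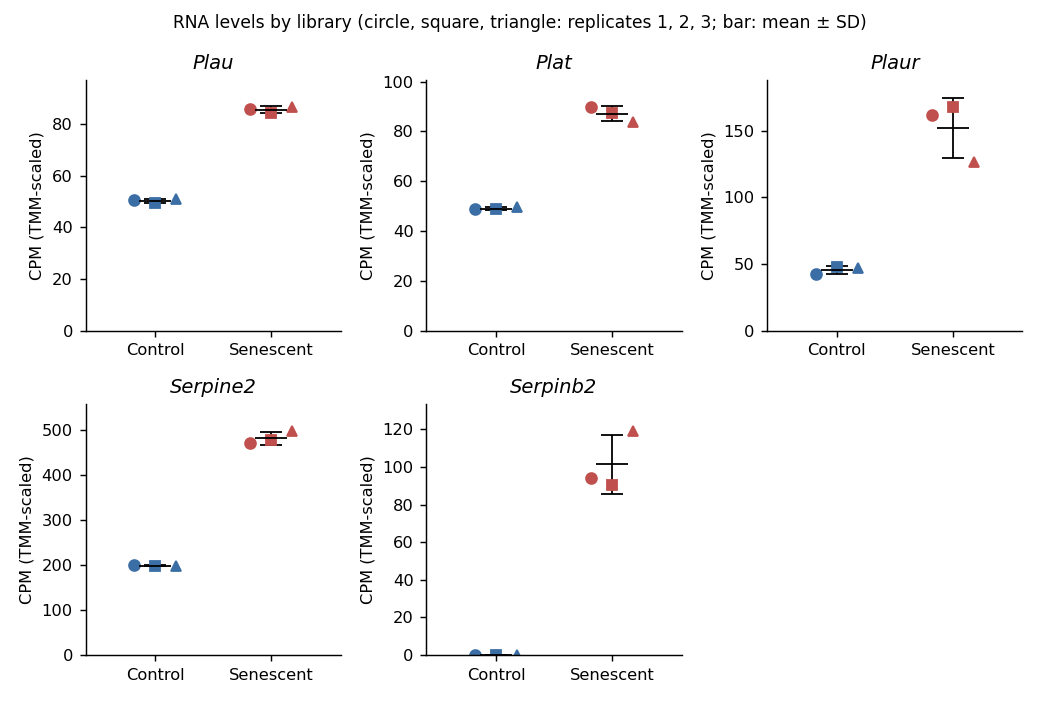
Level of each gene in every library, in TMM-scaled CPM on axes that start at 0, with replicates 1, 2 and 3 as circle, square and triangle and bars for mean ± SD (n = 3 libraries per group). All 3 senescent libraries lie above all 3 control libraries in each panel, senescent replicate 3 (triangle) is lowest for *Plaur* and *Plat* and highest for *Plau*, *Serpine2* and *Serpinb2*, and *Serpinb2* starts from 0.0795 CPM.

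In senescent cells all 5 genes were called higher (adjusted p under 0.05), a call made for 36.2% of tested genes, and 0 were called lower. At the limit in the study's methods, an unadjusted p under 0.05 with a log2 fold change over 1, *Plaur*, *Serpine2* and *Serpinb2* passed, 3 of 5 genes, and 17.8% of tested genes passed it upwards. The groups did not overlap for any of the 5, and they did not overlap for 75.3% of tested genes. Nothing is read from these counts, because the same comparison picked the genes.

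Levels were compared between genes per length, and here the length used mattered. With the gene lengths of the deposited table, the order of mean levels in control cells was *Plaur* at 32.7 RPKM, *Serpine2* at 24.0, *Plau* at 21.4, *Plat* at 19.4 and *Serpinb2* at 0.0339 RPKM. In senescent cells it was *Plaur* at 109 RPKM, *Serpine2* at 58.2, *Serpinb2* at 43.2, *Plau* at 36.5 and *Plat* at 34.4 RPKM. In neither group did the ranges of neighbours in the order overlap over the 3 libraries. The table's length of *Serpine2*, 8287 bases, is the union of 6 annotated transcripts, of which 3 are retained introns, whereas its principal transcript in GENCODE M21 has 2210 bases. For the other 4 genes both lengths were within a factor of 1.18. With principal transcript lengths, chosen after seeing the data, *Serpine2* moved ahead of *Plaur*, at 89.9 against 30.3 RPKM in control and 218 against 101 RPKM in senescent cells, and the order of the others did not change. Fold changes within a gene do not depend on its length.

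**Figure D2:**
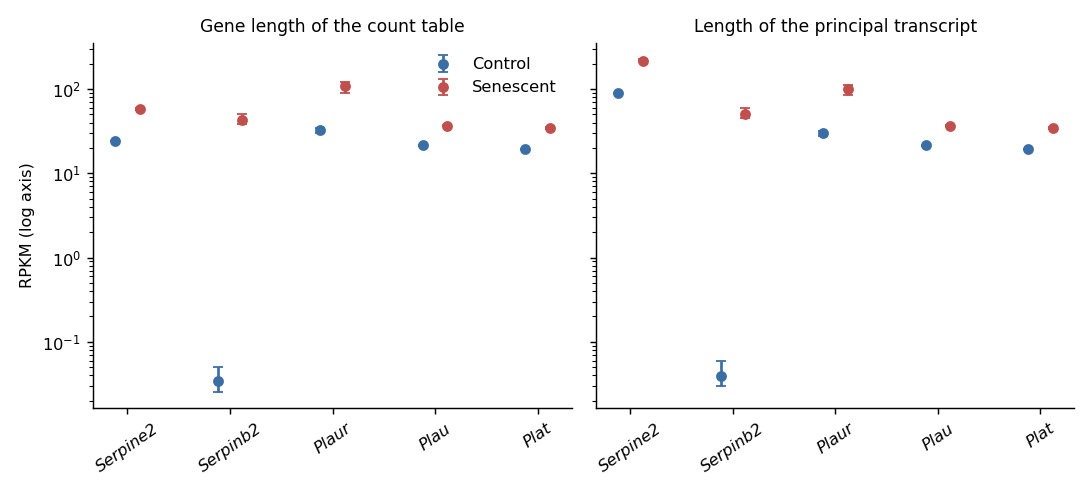
Mean level per length of the 5 genes, in RPKM on a log axis, with the range of the 3 libraries as bars, using the table's gene length on the left and the principal transcript's length on the right. *Serpine2* moves from below to above *Plaur* between the panels, and *Serpinb2* in control cells lies near 0.0339 to 0.0398 RPKM.

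Set against each other per length, the activators were lower relative to *Serpine2* and *Serpinb2* in senescent cells. *Plau* and *Plat* together went from 40.8 ± 0.462 RPKM to 70.9 ± 1.06 RPKM, and *Serpine2* and *Serpinb2* together from 24.0 ± 0.0433 RPKM to 101 ± 8.27 RPKM (SD, n = 3 per group, table lengths). The ratio of activators to these inhibitors was 1.70, 1.68 and 1.72 in control replicates 1 to 3, and 0.744, 0.733 and 0.633 in senescent replicates 1 to 3. With principal transcript lengths the ratio was 0.454 ± 0.00525 in control and 0.265 ± 0.0163 in senescent cells, so the activators did not exceed these 2 inhibitors in either group, and the ratio was again lower in senescent cells without overlap between groups. These are ratios of RNA, and the genes were chosen with their fold changes known, so no test was made of them.

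**Figure D3:**
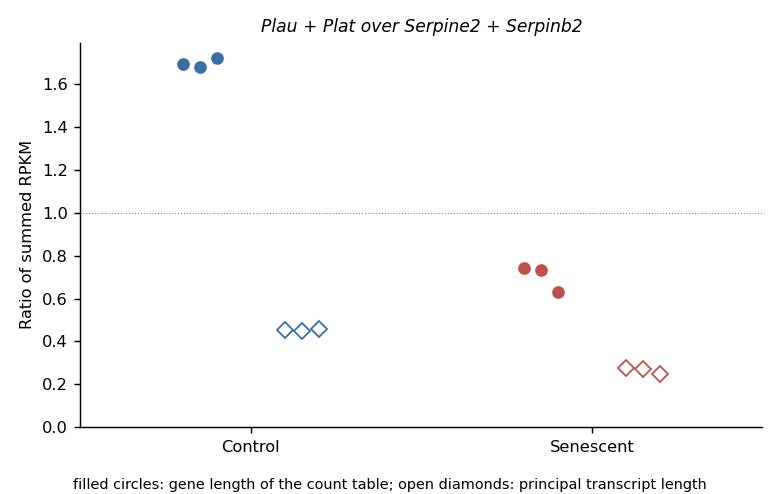
Ratio of summed activator RNA (*Plau* and *Plat*) to summed RNA of *Serpine2* and *Serpinb2* in each library, in RPKM over RPKM on an axis that starts at 0, by table length (filled circles) and principal transcript length (open diamonds). The 3 senescent libraries lie below the 3 control libraries with either length, and the control ratio is above 1 (dotted line) only with the table's lengths.

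The share of each in the RNA of these 2 inhibitors differed as well. *Serpinb2* was 0.00141 ± 0.000580 of the level of *Serpine2* in control cells and 0.740 ± 0.0918 in senescent cells by table lengths (SD, n = 3 per group). By principal transcript lengths it was 0.000443 ± 0.000182 and 0.232 ± 0.0288. The ratio of *Serpine2* to the summed activators moved less, from 0.588 ± 0.00670 to 0.820 ± 0.0350 by table lengths. By principal transcript lengths it was 2.20 ± 0.0251 and 3.07 ± 0.131, so *Serpine2* was below the activators with the first lengths and above them with the second, and with neither did the groups overlap.

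A list of 29 other genes of the plasminogen system was read in the same fit. Of these, 22 were tested, 14 passed an adjusted p of 0.05 upwards in senescent cells, 3 passed it downwards and 5 were not called, around a median log2 fold change of 0.72. The shares over all tested genes were 36.2% upwards and 34.1% downwards, around a median of 0.01. Plasminogen itself (*Plg*), the substrate of both activators, was not tested, since it had between 0 and 2 counts in any library, and the level of the zymogen in these cultures cannot be read from the RNA of the fibroblasts.

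Of 6 further inhibitors in the list, 3 were tested and called higher, a call made for 36.2% of all tested genes. Of the 3, *Serpinf2* passed the filter only through the senescent libraries and could not have been called lower. The 3 were neuroserpin (*Serpini1*), the tPA inhibitor first known from neurons, the plasmin inhibitor alpha-2-antiplasmin (*Serpinf2*) and the broad protease trap alpha-2-macroglobulin (*A2m*). *Serpini1* went from 1.25 ± 0.114 CPM to 4.71 ± 0.431 CPM (log2 fold change 1.92, adjusted p = 5.32e-06, edgeR quasi-likelihood test), and *A2m* from 15.2 ± 1.31 CPM to 43.4 ± 3.22 CPM (log2 fold change 1.51). *Serpinf2* was rare in both groups, at 0.114 ± 0.0518 CPM and 0.569 ± 0.0941 CPM (log2 fold change 2.32).

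The cell surface proteins that hold plasminogen went mostly the other way. Of 5 plasminogen receptors and cofactors, all tested, 3 were lower, 1 was higher and 1 was not called. Over all tested genes 34.1% were lower and 36.2% higher. Enolase 1 (*Eno1*), a glycolytic enzyme that also binds plasminogen at the surface, fell from 2385 ± 122 CPM to 1169 ± 242 CPM (log2 fold change -1.03, adjusted p = 0.000355, edgeR quasi-likelihood test, Benjamini-Hochberg). Annexin A2 (*Anxa2*), which holds plasminogen and tPA together, fell from 1845 ± 21.2 CPM to 1227 ± 39.99 CPM (log2 fold change -0.59, adjusted p = 2.37e-05, the same test), and *Plgrkt*, the receptor with a C-terminal lysine, fell by 0.33 on the log2 scale. *S100a10*, the partner of annexin A2, was at 164 ± 1.43 CPM and 161 ± 7.61 CPM and was not called. Tetranectin (*Clec3b*) rose from 0.337 ± 0.118 CPM to 0.765 ± 0.0882 CPM.

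All 7 tested partners of the urokinase receptor were higher in senescent cells, against 36.2% of all tested genes. uPAR has no part inside the cell and signals through integrins and growth factor receptors beside it. Integrin beta 3 (*Itgb3*) rose most, from 10.6 ± 0.757 CPM to 45.9 ± 0.987 CPM (log2 fold change 2.12, adjusted p = 1.82e-07, edgeR quasi-likelihood test), and the EGF receptor (*Egfr*) from 25.5 ± 0.271 CPM to 82.3 ± 4.94 CPM (log2 fold change 1.69). The other 5 were integrins with log2 fold changes from 0.55 to 1.11. Vitronectin (*Vtn*), the matrix ligand of uPAR, and the formyl peptide receptors *Fpr1* and *Fpr2* were not tested, with 4, 3 and 21 counts over the 6 libraries.

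Receptors that clear the complexes of activator, serpin and uPAR were listed together with *Mrc2*, which is not 1 of them, and with their chaperone *Lrpap1*. Of these 7 genes, all tested, 3 were higher, against 36.2% of all tested genes, and 4 were not called. The 3 were *Lrp2*, *Mrc2* and *Lrpap1*. Megalin (*Lrp2*) rose from 0.556 ± 0.0694 CPM to 6.70 ± 0.220 CPM (log2 fold change 3.58, adjusted p = 1.56e-07, edgeR quasi-likelihood test), and *Mrc2*, also known as uPAR-associated protein, from 105 ± 7.17 CPM to 181 ± 37.7 CPM (log2 fold change 0.78). *Lrpap1*, a chaperone of this receptor family, had a log2 fold change of 0.28 and lost its call without control replicate 1 or without senescent replicate 1. *Lrp1*, the main clearance receptor of fibroblasts, averaged 1191 ± 85.9 CPM in controls, against 1227 ± 316 CPM after irradiation, with a senescent range of 868 to 1465 CPM that enclosed all control libraries. It was not called, and *Lrp1* and *Vldlr* gained a call without senescent replicate 3.

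**Figure D4:**
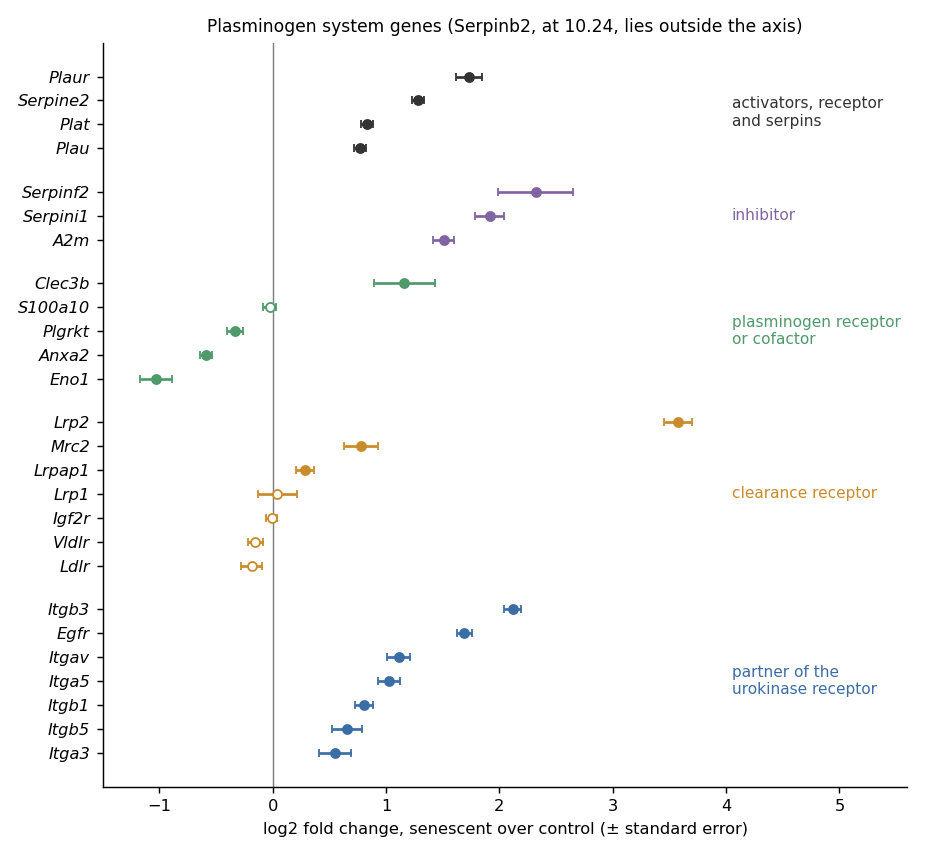
Log2 fold change of senescent over control cells, with its standard error, for 4 of the 5 genes (top block) and the 22 tested genes of the plasminogen system list grouped by role, where filled points were called at an adjusted p under 0.05 and open points were not. The tested inhibitors and the partners of the urokinase receptor all lie right of 0. Of 5 plasminogen receptors or cofactors, 4 lie left of 0, 3 of them filled. Of the 7 genes in the clearance receptor block, which include *Mrc2* and the chaperone *Lrpap1*, 4 are open.

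Genes whose products plasmin or the activators cut were read as a second list. Of 20 such rows, 17 were tested, 12 were higher, 3 lower and 2 not called, with a median log2 fold change of 0.96. *Mmp9*, *Mmp10* and *Mmp13* passed the filter only through the senescent libraries and could not have been called lower: with at least 10 counts asked of every library, 9 were called higher. The proenzymes of matrix metalloproteinases had the largest differences: stromelysin 2 (*Mmp10*) went from 0.104 ± 0.0679 CPM to 12.7 ± 0.712 CPM and collagenase 3 (*Mmp13*) from 0.134 ± 0.0413 CPM to 16.4 ± 2.54 CPM. Gelatinase A (*Mmp2*) fell by 0.27 on the log2 scale. Among growth factors and their stores *Pdgfd* and *Pdgfc*, latent forms of PDGF that need a cut to become active, rose with log2 fold changes of 2.21 and 1.35, and *Igfbp3*, which holds IGF, fell by 1.27 on the log2 scale. Of the clot proteins, the fibrinogen chains *Fga* and *Fgg* rose with log2 fold changes of 4.57 and 4.52. The remaining chain, *Fgb*, was not tested, with 9 counts over the 6 libraries. The laminin gene *Lamc1* fell by 0.69 on the log2 scale.

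*Serpine2* and *Serpinb2* belong to a large family, of which 65 further rows were read here and 32 were tested. Of these 25 were higher, 4 lower and 3 not called, against 36.2% higher and 34.1% lower over all tested genes. The median log2 fold change was 1.84, against 0.01 over all tested genes. Several serpins passed the filter only through their senescent counts and could not have been called lower: with at least 10 counts asked of every library, 13 were called higher. Besides genes near *Serpinb2*, the largest increases among serpins that averaged 50 counts or more were *Serpinb9e*, with 4 counts in control and 382 in senescent cells, *Serpinb9b*, from 3.96 ± 0.440 CPM to 88.7 ± 5.96 CPM, and *Serpina3c*, from 0.147 ± 0.0339 CPM to 2.18 ± 0.151 CPM. Within the *Serpinb9* group, and separately within the *Serpina3* group, the genes are recent copies of one another in the mouse. Reads may therefore be split between genes of the same group, and their values are uncertain. The collagen chaperone *Serpinh1*, which is a serpin in fold but no protease inhibitor, fell from 2111 ± 185 CPM to 664 ± 109 CPM (log2 fold change -1.67, adjusted p = 1.19e-05, edgeR quasi-likelihood test), and *Serpinb1a* and *Serpinb9* fell by 0.37 and 0.26 on the log2 scale. *Serpinb9* lost its call under scaling by library size alone, with at least 10 counts asked of every library, and at the threshold in the study's methods. It also lost its call without any 1 of the control libraries, and without senescent replicate 1 or 2. *Serpinb13*, *Serpinb3d*, *Serpina1c* and *Serpinb6d* had 0 counts in all libraries. The family and the plasminogen system list share *Serpinf2*, *Serpina5* and *Serpini1*.

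The gene of PAI-2 lies in a row of 12 clade b serpin genes on chromosome 1 from 106861173 to 107610484. Per length *Serpinb2* was the highest of them in senescent cells, at 38.6 to 50.7 RPKM, against 6.69 to 7.72 RPKM for *Serpinb8* and 0.527 to 0.710 RPKM for *Serpinb10*. The tested genes on both sides of it, *Serpinb10* and *Serpinb7*, passed the filter only through their senescent counts and could not have been called lower, so their levels are given without p-values. *Serpinb10* went from 3 to 469 counts, a ratio of pooled levels of 113 with an exact 95% Poisson interval of 38.5 to 551, and *Serpinb7* from 1 to 57 counts, a ratio of 41.3 with an interval of 7.11 to 1658. *Serpinb8* rose from 23.3 ± 0.865 CPM to 33.9 ± 2.70 CPM (log2 fold change 0.54, adjusted p = 0.000416, edgeR quasi-likelihood test), and *Serpinb5*, the gene of maspin, was at 66 and 102 counts and was not called. The 7 genes from *Serpinb12* to *Serpinb11* held 0 counts in the control libraries and 0 to 19 counts in the senescent libraries, of which *Serpinb3b* had 19. *Serpinb10* and *Serpinb2* overlap, and their values may share reads.

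**Figure D5:**
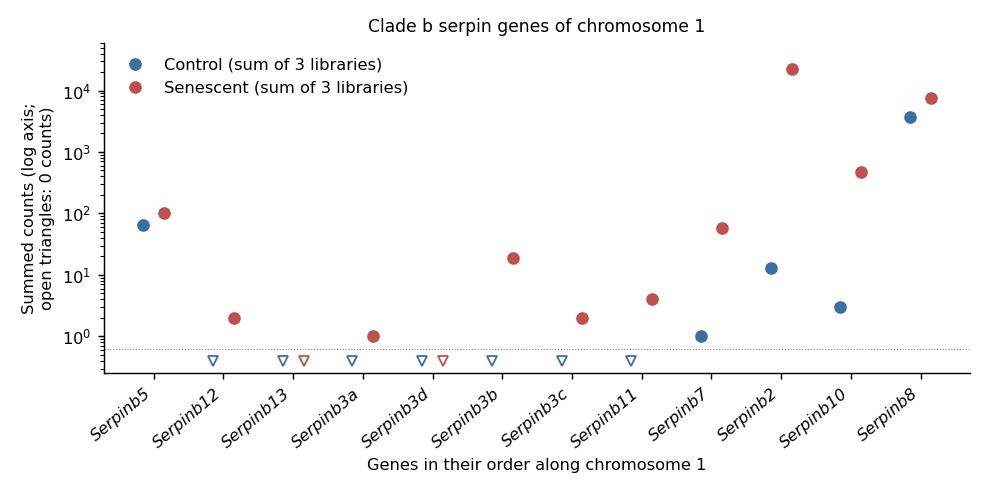
Counts summed over the 3 libraries of each group for the 12 clade b serpin genes of chromosome 1, in gene order, on a log axis with open triangles for 0 counts. *Serpinb2* goes from 13 to 22467 counts, *Serpinb7* and *Serpinb10* beside it from 1 to 57 and from 3 to 469, *Serpinb5* and *Serpinb8* at the ends from 66 to 102 and from 3678 to 7488, and the 7 genes between *Serpinb5* and *Serpinb7* stay at 19 counts or fewer.

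Genes near each of the 5 were read for comparison, against the 36.2% of all tested genes that were called higher and the 34.1% called lower. Among genes that start within 500 kb of *Serpinb2*, 4 were tested and called higher, but *Serpinb7*, *Serpinb10* and *AC148982.1*, which lies inside the span of *Serpinb10*, were tested only because of their senescent counts, and *Serpinb8* alone could have been called in either direction. Around *Plau*, 3 of 21 tested neighbours were higher and 10 lower. Around *Plaur*, 2 of 23 were higher and 12 lower. *Plat* had 9 higher and 1 lower of 16, and *Serpine2* 3 higher and 2 lower of 7. These shares were not tested against each other. Directly beside the genes, *Vcl* next to *Plau* and *Ap3m2* next to *Plat* rose with log2 fold changes of 0.70 and 0.66, *Cadm4* next to *Plaur* fell by 1.57 and *Gm5529* next to *Serpine2* fell by 0.43. On their other sides *Camk2g*, *Ikbkb*, *Smg9* and *Mrpl44* had log2 fold changes between -0.08 and 0.07 and were not called.

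Genes with a pattern most like each of the 5 were sought among 12692 tested genes that averaged 50 counts or more, by the root mean square difference of centred log2 CPM over the 6 libraries. For *Plau* the nearest were *Cxcl12* (0.0154), *Rab23* (0.0170) and *Jagn1* (0.0241). *Plat* was nearest to *Ndrg1* (0.0168), *Rabgef1* (0.0235) and *Hspb8* (0.0253), and *Serpine2* to *Snx30* (0.0178), *Lrrfip1* (0.0184) and *Ccnd2* (0.0197). *Plaur*, whose senescent libraries were more uneven, had its nearest genes further off, *Tsku* (0.0534), *Dusp10* (0.0627) and *Mgp* (0.0654). No gene was close to *Serpinb2*: among the nearest were *Ivl* (0.594), with 0 counts in every control library and a mean of 14.0 CPM in senescent cells, and *Crct1* (0.748). In 6 libraries that fall into 2 groups this measure follows the fold change above all.

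Markers of other cells that make these proteins were read beside them. Macrophages express *Plaur* and *Serpinb2*, endothelium *Plat*, and keratinocytes *Serpinb2* and *Plau*. Over all tested genes, 36.2% were called higher and 34.1% lower. The summed level of 8 macrophage markers was 8.62 to 9.40 CPM in control and 19.3 to 21.8 CPM in senescent libraries, with 6 tested and 6 higher, among them *Lyz2* at 0.256 and 4.52 CPM, *Ptprc* at 0.181 and 1.39 CPM and *Csf1r* at 1.99 and 3.91 CPM. *Lyz2* and *Ptprc* passed the filter only through the senescent libraries and could not have been called lower. The defining *Adgre1* was at 0.0200 and 0.0898 CPM and *Fcgr1* at 0.0124 and 0.00816 CPM. For 8 endothelial markers the sum was 4.71 to 6.28 CPM and 9.87 to 9.94 CPM, with 5 of 6 tested higher and 1 lower. Of those called higher, *Cdh5*, *Kdr* and *Vwf* passed the filter only through the senescent libraries and could not have been called lower. For 8 keratinocyte markers it was 9.84 to 12.0 CPM and 24.1 to 31.0 CPM, where *Ivl*, with 0 counts in control and so tested only through the senescent libraries, was the only 1 of 4 tested to be called higher and *Krt14* was at 0.0772 and 0.0883 CPM. No marker was at 0 in all libraries. The part of such cells in the values of the 5 genes was not tested.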

How the data were processed

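Polyadenylated RNA was sequenced from stranded libraries made with 200 ng of RNA in 3 control and 3 senescent samples. The authors mapped reads with STAR and counted them on genes with Subread (build mm10, per the submitters' processing notes), and the deposited values are raw counts per gene beside a gene length in bases, which the authors' table gives without saying how it was made. The strand setting and how reads with several matches were handled are not given in the sources used here. All 6 count columns carried sample labels, and 0 columns were left unused. The 37 mitochondrial rows hold 0 counts.

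The counts were filtered with filterByExpr, scaled by TMM and tested with the robust quasi-likelihood test of edgeR, with group as the only term (edgeR 4.0.16, limma 3.58.1, R 4.3.3), two-sided, with Benjamini-Hochberg adjustment over 17589 genes. A gene was called at an adjusted p under 0.05. Each SE is the absolute log2 fold change over the square root of the F statistic of that test. CPM used TMM-scaled library sizes, and RPKM is CPM per kilobase of the table's length or of the principal transcript in GENCODE M21 (GRCm38). An exact permutation test of 3 against 3 libraries cannot go below p = 0.1 and was not used. For a gene with 0 counts, 3 counts allow 0.0355 to 0.0613 CPM in a library. These limits and the Poisson intervals cover counting error only, since reads carried no molecular identifiers. The code was tested on simulated data.

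The genes and lists were chosen with earlier results of these data known. The text names every one of the 5 genes, up to 2 called genes per direction and role of each list, up to 4 per direction of the serpin family (each with a mean count of at least 50), the adjoining tested genes, the clade b genes of chromosome 1, the 3 most alike genes and 4 state markers. *Serpinf2*, *Plgrkt*, *Clec3b*, *S100a10*, *Lrpap1*, *Lrp1*, *Vldlr*, *AC148982.1*, the untested genes and single markers fall outside that rule and were named after their values had been seen. Alternatives were RLE scaling, library size alone, other filters, edgeR's exact test, DESeq2 1.42.0, the threshold in the study's methods, a replicate block and each library left out. The principal transcript lengths were added after seeing the data. Some genes that these rules would take are not reported here and were left out of the lists and ratios.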

Additional observations from a re-analysis of the deposited data

How the results depend on the processing

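None of the log2 fold changes recomputed under the alternatives changed direction. Of 185 recomputed values, 169 kept their value or count within the limits set for them. Those limits were wide for counts. They scored as kept a move from 12 to 8 substrates called higher at the threshold in the study's methods. A move from 25 to 32 serpins called higher, with no filter beyond 1 count, was also scored as kept. The 169 is therefore no measure of how stable the counts were. The 185 include counts of calls, which have no direction. They also include a senescent ratio that scaling and left-out control libraries cannot change. Over 13 settings (12 for *Serpinb2*) the log2 fold change was 0.75 to 0.85 for *Plau*, 0.81 to 0.91 for *Plat*, 1.67 to 1.86 for *Plaur*, 1.26 to 1.36 for *Serpine2* and 10.07 to 10.66 for *Serpinb2*. With library size alone it was 0.85 for *Plau*, 0.91 for *Plat* and 1.36 for *Serpine2*, and with at least 10 counts in every library 0.82, 0.88 and 1.33. That filter left *Serpinb2* untested and brought the higher calls of the serpin family from 25 to 13 and its lower calls from 4 to 3. At the threshold in the study's methods, 3134 genes were higher and 2166 lower, against 6360 and 6005, 1 gene each of the plasminogen system, the substrates and the serpin family was lower, and the higher calls of the plasminogen system list went from 14 to 9. Principal transcript lengths gave a senescent ratio of activators to inhibitors of 0.265.

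Leaving out 1 library at a time gave 10.07 to 10.66 for the log2 fold change of *Serpinb2*, highest without control replicate 2, which held 7 of its 13 control counts. It gave 2 to 4 lower and 25 to 28 higher calls in the serpin family, with 2 lower without senescent replicate 2. Lower calls in the plasminogen system list numbered 3 to 4 and higher calls 13 to 15. Same-numbered libraries did not deviate together (correlations of deviations -0.323, 0.240 and -0.217), so the numbers were not taken as pairs. With a replicate block the log2 fold changes were 0.77 for *Plau*, 0.83 for *Plat*, 1.73 for *Plaur*, 1.28 for *Serpine2* and 10.23 for *Serpinb2*, the genes called were 5964 higher and 5660 lower, and in the lists only the call of *Serpina3i* changed.

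Depth limits *Serpinb2*, *Serpinb7* and *Serpinb10* in control cells, where 1 to 13 counts in all make the size of the difference uncertain. *Plg*, *Vtn* and *Fpr1* were too rare in these libraries for any difference to be detectable.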
